A study of Drosophila melanogaster with 12 samples.

Results

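This report describes the mRNA bound to polysomes in Drosophila melanogaster ovaries in which bam was knocked down, set against ovaries in which tkv was overexpressed in the germline. The comparison holds 4 of the 12 libraries of the series, 2 of each genotype, taken by their labels as polysome fractions. The other libraries are the inputs of both genotypes and the input and polysome libraries of aramis RNAi ovaries. The UAS-tkv ovaries (NosGAL4 > UAS-tkv) express the type I BMP receptor Thickveins from the germline driver nosGAL4 and hold an excess of germline stem cells, or GSCs. The bam RNAi ovaries (UAS-Dicer2;NosGAL4 > bam RNAi) express a hairpin against bam with the same driver and are enriched for cystoblasts (CBs), the daughters of GSCs. The UAS-Dicer2 transgene is carried by the knockdown line and not by the UAS-tkv line, so its effect and that of the genotype cannot be told apart. Flies were fattened on yeast and ovaries were dissected 1 to 3 days after eclosion. Both samples also contain somatic cells of the ovary, which the germline driver does not act in. The 2 libraries of a genotype are separate samples in the labels. Nothing in the labels says that they came from separate dissections, so the p-values measure the spread between such samples only, which may be technical.

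In the germarium, BMP ligands from the somatic niche bind receptors on the GSC, and the downstream Smad proteins keep bam transcription off. The daughter that leaves the niche expresses Bam, which together with its partner Bgcn represses the translation of self-renewal mRNAs and starts differentiation. Germ cells without Bam accumulate as single cells that do not form cysts. Ribosomes are loaded on mRNAs that are being translated, so the mRNA recovered from the heavy part of a sucrose gradient reports both how much of a transcript is present and how much of it is engaged by ribosomes.

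The bam RNAi polysome libraries held 5516325 counts (replicate 1) and 15039925 counts (replicate 2), and the UAS-tkv polysome libraries 11545494 and 5086998, within a range of 3131667 to 15039925 over the series. Levels are given as CPM, the counts of a gene relative to its library's total after scaling by the trimmed mean of M-values (TMM). Of 17023 gene IDs, 9745 passed the filter on low counts. Fold changes are log2 values of bam RNAi over UAS-tkv from edgeR's quasi-likelihood test over all 12 libraries, with p-values adjusted by Benjamini and Hochberg's method over all 9745 genes, and genes with an adjusted p below 0.05 are said to be called. The input and aramis RNAi libraries thus enter the estimate of spread behind each p-value. Over all genes tested, log CPM correlated at r = 0.902 (Pearson) between the 2 bam RNAi polysome libraries and at 0.8725 between the UAS-tkv pair. With UAS-tkv polysome replicates 1 and 2, bam RNAi polysome replicate 1 correlated at 0.8863 and 0.8664, and replicate 2 at 0.9017 and 0.8722. Polysome libraries of different genotypes were thus about as close in this measure as those of the same genotype. With the 2 bam RNAi inputs, bam RNAi polysome replicate 2 correlated at 0.945 and 0.967, and replicate 1 at 0.872 and 0.892. The 2 bam RNAi polysome libraries stood apart from each other in their ribosomal protein mRNAs. Cytosolic ribosomal protein mRNAs took 33.9% of the counts in replicate 1 and 9.51% in replicate 2, against 21.6% and 21.8% in the UAS-tkv libraries. For that reason the libraries are mostly shown on their own, and some results are also given without a single library. A call given without such a check need not hold when a library is left out.

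The genes that the labels name were examined first. Polysome-bound bam was at 0 CPM in bam RNAi replicate 1 and 0.693 CPM in replicate 2, against 7.42 and 4.47 CPM in the UAS-tkv libraries. Both knockdown libraries thus lay below both UAS-tkv libraries, but with so few counts the log2 difference of -3.79 (SE 1.13) was not called (edgeR adjusted p = 0.179). In the input libraries bam stood at 3.55 and 2.48 CPM in bam RNAi and at 8.21 and 8.23 CPM in UAS-tkv. Polysome-bound tkv, the overexpressed receptor, was at 258 and 256 CPM in UAS-tkv and at 100.03 and 172 CPM in bam RNAi. Its log2 difference of -0.91 (SE 0.31) also missed the threshold (edgeR adjusted p = 0.237). Dcr-2, the small RNA Dicer carried as a transgene by the knockdown line, was at 181 and 291 CPM in bam RNAi polysomes, on either side of the 216 and 222 CPM in UAS-tkv. Of the other germ cell markers, vas was not matched to a gene ID, and nanos, aub and bgcn were present in all 4 libraries. aub, a piRNA pathway Argonaute, ranged from 134 to 210 CPM over the 4 libraries, and bgcn, the partner of bam, from 95.2 to 117 CPM. nanos was at 43.8 and 121 CPM in bam RNAi and 132 and 73.8 CPM in UAS-tkv.

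A total of 61 genes differed in the polysome fraction, 41 higher and 20 lower in bam RNAi, which is 0.421% and 0.205% of the genes tested (0.626% in both directions). At an unadjusted p under 0.05, 895 genes (9.18%) were higher and 490 (5.03%) lower. In each of the 61 called genes the bam RNAi libraries lay both above or both below the UAS-tkv libraries. Over all genes tested, 15.7% had both bam RNAi libraries above and 14.8% both below. The balance of directions changed between fits, with 4 higher and 32 lower in a fit of the 4 polysome libraries alone and 97 higher and 134 lower without bam RNAi replicate 2. The count was 509 with DESeq2 and 706 with no filter on low counts, and it depended on single libraries. It fell to 16 without UAS-tkv replicate 1 and rose to 137 without bam RNAi replicate 1, 231 without bam RNAi replicate 2 and 100 without UAS-tkv replicate 2. Only 12 of the 61 genes were called whichever of the 4 polysome libraries was left out, among them scaf, NimC1, CG32694, CG2065, Hk, yellow-g2, yellow-g, Cp7Fb, CG4009 and Obp19c. No called gene changed direction under any of the alternatives run.

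Of the 20 genes that fell, 5 were on the list of vitelline membrane and eggshell genes, which follicle cells express to build the coat of the late oocyte. yellow-g2 (FBgn0035328, 3L:2276550-2278038, plus strand, dm6), a Yellow family protein needed for eggshell hardening, was at 4.13 and 1.71 CPM in bam RNAi and 308 and 381 CPM in UAS-tkv. The bam RNAi mean was 2.92 ± 1.71 CPM and the UAS-tkv mean 345 ± 51.8 CPM (SD, n = 2 each), a log2 difference of -7.03 (SE 0.81, edgeR adjusted p = 0.0036). Its relative yellow-g stood at 9.87 and 5.12 CPM against 291 and 589 CPM. The chorion protein gene Cp15 (FBgn0000355, 3L:8728481-8729066, plus strand, dm6) was at 35.8 and 7.36 CPM against 2501 and 1397 CPM, a log2 difference of -6.54 (SE 1.18, edgeR adjusted p = 0.0344). Cp38 (FBgn0000360, X:8481837-8483311, plus strand, dm6), from the chorion gene cluster of the X chromosome, was at 25.01 and 14.0 CPM against 1233 and 2018 CPM. Cp7Fb stood at 2.29 and 2.83 CPM against 227 and 87.4 CPM. The genotypes did not overlap in any of these genes. Cp15 was not called without bam RNAi replicate 2 (edgeR adjusted p = 0.0623) or UAS-tkv replicate 1 (0.094), and Cp38 missed narrowly without either bam RNAi library (0.0509 and 0.0544).

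Of the 23 vitelline membrane and eggshell genes, all of which passed the filter, 5 fell and none rose, and the median log2 difference was -4.70 against 0.01 over all genes tested. Both bam RNAi libraries lay below both UAS-tkv libraries for 16 of the 23. The median was -3.96 in bam RNAi replicate 1 and -3.65 in replicate 2, each set against the UAS-tkv mean, and it stayed between -5.05 and -3.46 when any polysome library was left out. Not all of the list behaved as the chorion genes did. The vitelline membrane genes are switched on earlier in follicle cells, and the levels of Vm26Aa, Vm26Ab, Vm26Ac and Vm34Ca overlapped between the genotypes, whereas those of Vm32E and Vml did not. Vm26Aa was at 272 and 1530 CPM in bam RNAi and 3458 and 737 CPM in UAS-tkv. Vm34Ca was at 427 and 1529 CPM against 5965 and 903 CPM. For both genes the replicates of a genotype differed by several fold, in opposite order. The yolk protein genes Yp1, Yp2 and Yp3 had their replicates in the same opposite order, with Yp2 at 625 and 1244 CPM against 3387 and 785 CPM.

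Genes of the late oocyte and of the stored maternal mRNA pool were also lower. mtrm (FBgn0010431, 3L:8413012-8414103, plus strand, dm6), the inhibitor of Polo kinase that acts in the meiotic arrest of the oocyte, was at 3.21 and 1.07 CPM in bam RNAi and 63.1 and 29.5 CPM in UAS-tkv. The log2 difference was -4.57 (SE 0.72, edgeR adjusted p = 0.0163). dhd (FBgn0011761, X:5312171-5313125, plus strand, dm6), a germline thioredoxin, was at 30.7 and 8.91 CPM against 429 and 406 CPM. alphaTub67C, the maternal alpha-tubulin, stood at 17.7 and 4.59 CPM against 192 and 101 CPM. In none of these did the groups overlap. Without UAS-tkv replicate 1 all 3 missed the threshold (edgeR adjusted p from 0.0701 to 0.143), and alphaTub67C did so without bam RNAi replicate 2 as well (0.0752). Of the 29 oocyte and maternal factors, 3 fell, none rose, and 17 had both bam RNAi libraries below both UAS-tkv libraries. The list's median log2 difference was -1.04, with -1.21 in bam RNAi replicate 1 and -1.24 in replicate 2. osk, which organises the germ plasm, was at 9.41 and 1.92 CPM against 82.8 and 34.4 CPM but was not called (log2 -3.51, SE 0.71, edgeR adjusted p = 0.0556). stau and orb had both bam RNAi libraries on the high side, stau at 45.4 and 53.8 CPM against 28.9 and 15.9 CPM, and orb at 40.6 and 34.9 CPM against 33.9 and 17.5 CPM. Neither was called.

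Among the other called genes that were lower, fs(1)K10, which acts in dorsoventral patterning of the oocyte, had the smallest difference, with 18.4 and 28.7 CPM against 104 and 85.9 CPM (log2 -1.999, SE 0.31, edgeR adjusted p = 0.0163, but 0.094 without UAS-tkv replicate 1). fs(1)Ya, a nuclear envelope protein of the egg, was at 6.42 and 5.49 CPM against 117 and 34.0 CPM. Jabba, a lipid droplet protein that holds histones in the egg, was at 13.8 and 19.8 CPM against 150 and 74.2 CPM. The lowest log2 difference of all, -10.9, was that of the odorant-binding protein gene Obp19c, at 0 and 0.0533 CPM against 171 and 46.4 CPM. That is 1 count against 2354, a ratio of 3100 with a 95% counting interval of 556 to 1.22e+05. For CG5568, with 0 against 142 counts, the level was at least 62.3-fold lower (3 counts over the group as the floor). CG4009, Cyp6a19 and CG13114 completed the 10 largest decreases at a mean of 10 CPM or more, with CG4009 at 2.07 and 0.960 CPM against 57.9 and 133 CPM.

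**Figure D1:**
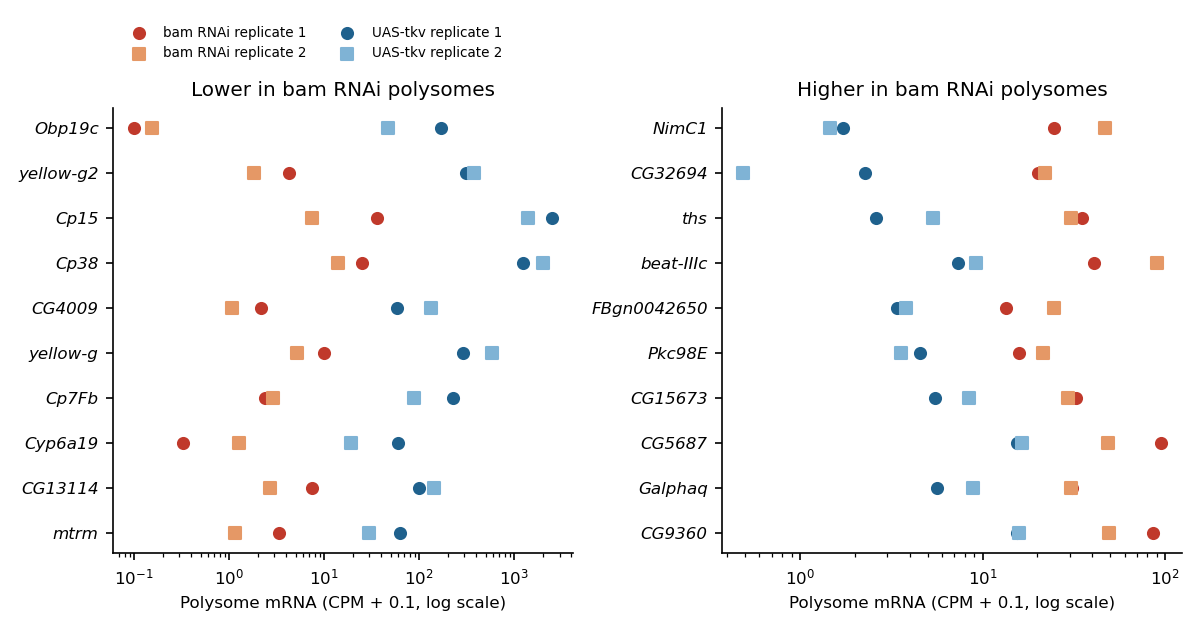
Polysome mRNA in CPM (0.1 added, log axis) for the 10 called genes with the lowest (left) and the 10 with the highest log2 difference (right) at a mean of at least 10 CPM. Each point is 1 library, red and orange for bam RNAi replicates 1 and 2, dark and light blue for UAS-tkv replicates 1 and 2. The genotypes do not overlap for any of the 20 genes, which was a condition of their choice.

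The genes that rose did so by less, with a median log2 difference of 2.67 (range 1.35 to 10.6) against -4.63 among the genes that fell. NimC1 (FBgn0259896, 2L:13973158-13976769, minus strand, dm6), a phagocytosis receptor of plasmatocytes, was at 24.6 and 46.8 CPM in bam RNAi and 1.61 and 1.36 CPM in UAS-tkv. The means were 35.7 ± 15.8 CPM and 1.49 ± 0.179 CPM (SD, n = 2 each), a log2 difference of 4.56 (SE 0.47, edgeR adjusted p = 0.0033). ths, which encodes an FGF ligand, was at 35.1 and 30.5 CPM against 2.50 and 5.25 CPM (log2 3.13, SE 0.39, edgeR adjusted p = 0.00694, and 0.0598 without UAS-tkv replicate 1). Its signalling adaptor stumps, which acts downstream of FGF receptors, rose as well, from 14.4 and 12.2 CPM to 41.8 and 44.5 CPM. The other FGF ligand gene called, bnl, was at 9.18 and 8.43 CPM against 0 and 0.389 CPM, or 198 against 2 counts.

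Other genes that rose have known roles at the cell surface or in signalling. beat-IIIc, an immunoglobulin family protein, was at 40.8 and 90.5 CPM against 7.26 and 9.13 CPM. Eph, the ephrin receptor tyrosine kinase, was at 107 and 113 CPM against 31.5 and 32.4 CPM. Sdc, the heparan sulphate proteoglycan Syndecan, was at 66.5 and 77.3 CPM against 21.9 and 28.2 CPM. In these 3 genes both bam RNAi libraries sat above both UAS-tkv libraries. Galphaq, a G protein alpha subunit, was at 30.7 and 30.5 CPM against 5.56 and 8.74 CPM, and Pkc98E, a protein kinase C, at 15.8 and 21.3 CPM against 4.44 and 3.50 CPM. The genes CG32694, CG9360, CG5687, CG15673 and FBgn0042650 were also among the 10 with the largest rise at that level, with CG32694 at 20.0 and 21.9 CPM against 2.18 and 0.389 CPM. Syp, msi and mbl, which encode RNA-binding proteins, rose as well. Syp stood at 88.1 and 60.6 CPM against 18.5 and 18.7 CPM, msi at 39.0 and 36.6 CPM against 7.90 and 13.4 CPM, and mbl at 21.6 and 35.3 CPM against 9.35 and 8.35 CPM. Apart from CG32694, none of the genes given with values in this paragraph kept its call without UAS-tkv replicate 1 (edgeR adjusted p from 0.0951 to 0.192). The genes of this paragraph, apart from beat-IIIc, Galphaq, Pkc98E and those 5, and stumps and bnl above, were chosen after their values were seen.

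A further 17 of the 41 genes that rose had a mean under 10 CPM, and several of these were almost absent from UAS-tkv polysomes. They were chosen after their values were seen. In 13 of the 41, both UAS-tkv polysome libraries were under 1 CPM, and in 5 both were at 0. Of all 9745 genes tested, 924 were at 0 in UAS-tkv polysome replicate 1 and 750 in replicate 2. The shares of all genes under 1 CPM or at 0 in both are not given here, so the 13 and the 5 have no background. The gene scaf, a serine protease homologue, was at 19.0 and 20.8 CPM in bam RNAi polysomes (473 counts) and at 0 in both UAS-tkv libraries, at least 120-fold higher with 3 counts over the group as the floor. PGRP-LD was at least 21.0-fold, Liprin-gamma at least 20.8-fold, fj at least 18.5-fold and SK at least 18.0-fold higher. Syt4 had 320 counts against 1, MsR1 380 against 1 and Hk 173 against 1. Several of these genes are best known from neurons, where Syt4 is a synaptotagmin, SK and Hk encode a potassium channel and a potassium channel subunit, Nrx-1 is a neurexin and elav an RNA-binding protein. elav was at 3.90 and 8.05 CPM against 0.806 and 1.17 CPM, and Nrx-1 at 6.19 and 9.28 CPM against 1.13 and 1.17 CPM. Of the 13 genes under 1 CPM in both UAS-tkv polysome libraries, 10 were at 1 CPM or more in both UAS-tkv input libraries. The other 3 were Syt4, at 0 and 0.323 CPM in those inputs, MsR1, at 0.104 and 3.23 CPM, and Spn43Ad, at 0.416 and 1.45 CPM. scaf, for example, was at 4.16 and 5.01 CPM there, and at 21.1 and 17.9 CPM in the bam RNAi inputs. How many of all genes tested were under 1 CPM in UAS-tkv polysomes and at 1 CPM or more in the inputs was not counted.

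The same 61 genes were then followed in the input, the mRNA of the whole ovary lysate. All 41 that rose in polysomes also had an input difference above 0, and all 20 that fell had one below 0. The share of all genes tested with the same sign in both fractions was not counted, so these counts have no background. The input test called 23 genes, 0.236% of those tested, with 3 higher and 20 lower in bam RNAi, and 18 genes were called in both fractions. These were 29.5% of the polysome calls and 78.3% of the input calls. The genes that fell did so to a similar extent in both fractions, with a median of -4.63 in polysomes and -5.12 in input, and 15 of the 20 were called in input too. Those that rose had a median of 2.67 in polysomes and 1.01 in input, and 3 of the 41 were called in input, namely NimC1, CG11892 and CG9360. Because the 61 genes were chosen by their polysome difference, that choice alone favours larger values in polysomes than in input. The difference between the fractions was tested as an interaction term, polysome change minus input change. It was called for scaf alone (edgeR adjusted p = 0.0218), which is 0.0103% of the genes tested. The call was lost with the replicate block (0.0558) and when any of 6 of the 8 libraries was left out (0.0569 to 0.491), and its fitted size, 8.48 (SE 0.92), rests on 0 counts in both UAS-tkv polysome libraries and is no bound. For the other 40 genes that rose the interaction was not called.

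**Figure D2:**
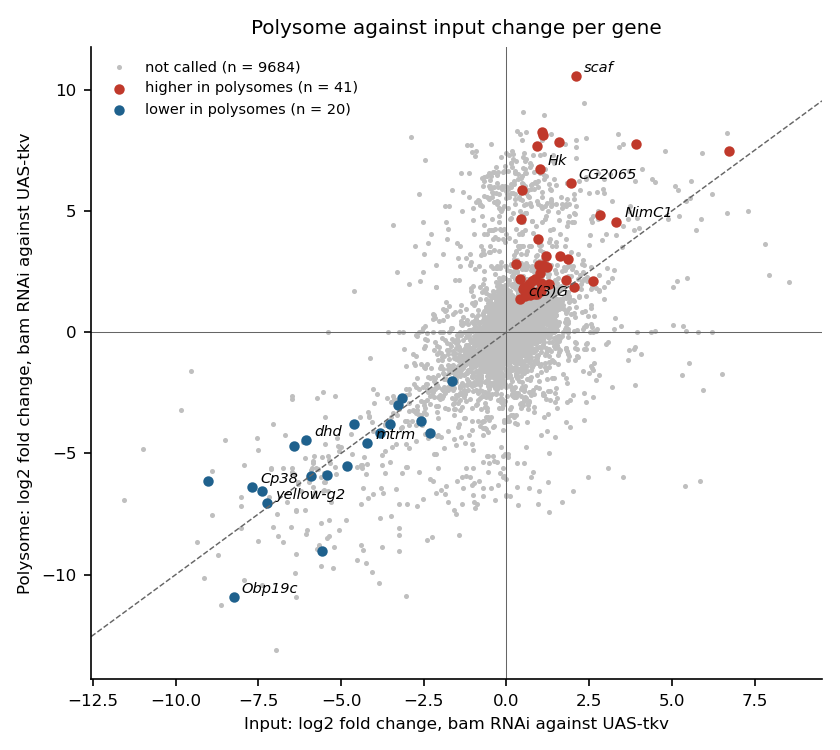
Log2 difference between bam RNAi and UAS-tkv in input (horizontal) and in polysomes (vertical) for the 9745 genes tested, with the 41 genes called higher in polysomes in red and the 20 called lower in blue. The dashed line marks equal change in both fractions. The blue points lie along it, with medians of -4.63 in polysomes and -5.12 in input. Most red points lie above it, with medians of 2.67 and 1.01. The coloured genes were chosen by their polysome difference, which favours larger values there, so their place against the line is no test.

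Of the meiosis list, 37 genes passed the filter, and 1 rose and 1 fell. The gene that fell was mtrm, described above. The gene that rose was c(3)G (FBgn0000246, 3R:15789473-15792579, minus strand, dm6), which encodes the transverse filament protein of the synaptonemal complex, the structure that holds homologous chromosomes together in meiotic prophase. It was at 103 and 129 CPM in bam RNAi and 42.7 and 48.4 CPM in UAS-tkv, with means of 116 ± 18.3 and 45.6 ± 3.99 CPM (SD, n = 2 each). The log2 difference was 1.35 (SE 0.26, edgeR adjusted p = 0.0418), beside 0.41 in input. c(3)G was not called without UAS-tkv replicate 1 (edgeR adjusted p = 0.176) or replicate 2 (0.0731). Other parts of the synaptonemal complex, and the cohesins that it is built on, were not called where they were tested. The list entries corolla and solo were not matched to a gene ID. cona was at 131 and 206 CPM against 177 and 214 CPM, c(2)M at 11.2 and 13.1 CPM against 14.5 and 4.66 CPM, sunn at 35.8 and 56.7 CPM against 43.1 and 49.0 CPM, and ord at 54.4 and 120 CPM against 75.3 and 96.6 CPM. In these 4 genes the genotypes overlapped. cona, c(2)M and sunn were picked after their values were seen. The list had 9 members with both bam RNAi libraries above and 9 with both below, and a median of 0.02.

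Among BMP pathway genes, the pathway that the UAS-tkv genotype acts on, none of the 16 tested was called. The median log2 difference was 0.81, but it was 0.05 in bam RNAi replicate 1 and 1.03 in replicate 2, so it rested on replicate 2. cv-2, which encodes an extracellular BMP-binding protein, was at 17.7 and 27.0 CPM against 5.08 and 9.33 CPM (log2 1.67, SE 0.38, edgeR adjusted p = 0.0765). mav, which encodes a TGF-beta family ligand, was at 45.4 and 89.9 CPM against 26.05 and 19.2 CPM (edgeR adjusted p = 0.0831). For both, neither bam RNAi library overlapped UAS-tkv. Of the 23 genes for germline differentiation and translational control none was called. The lowest p was that of Rbfox1, an RNA-binding protein of cyst differentiation, at 14.0 and 19.4 CPM against 6.37 and 1.94 CPM (edgeR adjusted p = 0.0957). That of bam came next. The piRNA pathway (32 genes), double-strand break repair (25) and aminoacyl-tRNA synthetases (31) had no call either, and medians of -0.07, -0.10 and -0.32. In ribosome biogenesis, where 35 genes were tested, none was called, but 12 had both bam RNAi libraries below both UAS-tkv libraries and none had both above. nop5, a box C/D snoRNP protein, stood there at 255 and 301 CPM against 474 and 437 CPM. Insulin and TOR signalling (17 genes) also had no call. REPTOR, a transcription factor that TORC1 holds inactive, was at 24.8 and 25.2 CPM against 11.5 and 10.9 CPM (edgeR adjusted p = 0.157).

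Markers of somatic cells were examined because these ovaries hold more than germ cells. In bulk ovaries, fewer cells of a type and less RNA per cell cannot be told apart. Of 23 muscle sheath genes tested none was called, yet 16 had both bam RNAi libraries above both UAS-tkv libraries and 1 both below. The median log2 difference was 0.93 (0.57 in bam RNAi replicate 1 and 1.16 in replicate 2). Their summed level was 13971 and 23141 CPM in bam RNAi and 7581 and 13254 CPM in UAS-tkv. Prm, paramyosin, was at 276 and 514 CPM against 140 and 153 CPM. Hemocyte markers (16 tested) had 1 call, NimC1, and a summed level of 5046 and 4350 CPM against 2129 and 3480 CPM. Hml, a defining gene of plasmatocytes, was at 174 and 99.1 CPM against 25.4 and 148 CPM, so it overlapped between genotypes where NimC1 did not. Markers of escort, cap and follicle cells (25 tested) had 2 calls, bnl and so, with 12 members both above and 1 both below. Their summed level was 1034 and 1328 CPM against 674 and 667 CPM. so, a homeodomain transcription factor, was at 36.7 and 35.0 CPM against 11.1 and 12.6 CPM. The muscle, hemocyte and escort markers moved in the same direction as the 41 genes that rose, and their part in that result was not tested. Fat body markers (11 tested) were at 281 and 349 CPM against 255 and 599 CPM with no call, and their median of -0.26 became 1.68 without UAS-tkv replicate 2.

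In midgut genes 1 UAS-tkv polysome library stood apart, and so did the UAS-tkv input library of the same number. The 23 midgut peptidase genes summed to 22.7 and 136 CPM in the bam RNAi libraries and 10.2 CPM in UAS-tkv replicate 1, but to 2200 CPM in UAS-tkv replicate 2. In input they summed to 13.8 and 123 CPM in bam RNAi, 14.0 CPM in UAS-tkv replicate 1 and 1298 CPM in replicate 2. In polysomes, single genes differed likewise. Jon25Biii, a gut serine protease, was at 0 and 0.747 CPM in bam RNAi, 0.403 CPM in UAS-tkv replicate 1 and 646 CPM in replicate 2. The list's median log2 difference was -5.09 with all libraries and 3.39 without UAS-tkv replicate 2. No midgut peptidase was called.

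The ribosomal protein mRNAs separated the 2 bam RNAi polysome libraries more than any other list. Ribosomal protein genes encode the structural subunits of the ribosome, and their mRNAs are among the most abundant of growing cells. Of 82 such genes tested (of 85), none was called between the genotypes, and the median log2 difference was 0.19. That value averages opposite libraries. The median was 0.90 in bam RNAi replicate 1 and -1.42 in replicate 2, each against the UAS-tkv mean. The median level over the 82 genes was 4565 CPM in replicate 1 and 899 CPM in replicate 2, against 2377 and 2659 CPM in UAS-tkv. All 82 genes were lower in bam RNAi replicate 2 than in both UAS-tkv libraries, and 72 of them were at the same time higher in bam RNAi replicate 1 than in both. Over all genes tested, 10.7% showed that layout. The ratio of replicate 1 to replicate 2 ran from 1.16 to 16.4 over the 82 genes, with a median of 5.34, where the ratio of UAS-tkv replicate 1 to replicate 2 had a median of 0.869. In the input libraries bam RNAi replicate 1 was the lower of the pair, with median levels of 1521 and 2956 CPM in bam RNAi and 2309 and 2093 CPM in UAS-tkv.

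Single genes show the size of the gap. RpLP0, an acidic stalk protein of the large subunit, was at 16121 CPM in bam RNAi replicate 1 and 1807 CPM in replicate 2, with 6461 and 4981 CPM in UAS-tkv. RpLP2, a partner in the stalk, was at 11486 and 698 CPM against 3857 and 4011 CPM. RpL32 was at 13534 and 1060 CPM against 3554 and 4183 CPM. Both UAS-tkv libraries sat between the bam RNAi libraries for all 3 genes. Genes of the large subunit and of the small subunit were alike in this, as RpS16 was at 6087 and 627 CPM against 2663 and 2884 CPM. Only 10 genes had a level in bam RNAi replicate 1 that was not above both UAS-tkv libraries, and 6 of these (RpS3A, RpL21, RpL22-like, RpS19b, RpS27 and RpL41) were lower in both bam RNAi libraries. Germline paralogues were found on both sides. RpS19b and RpL22-like were among the 6, whereas RpS5b was at 2803 and 426 CPM against 2238 and 1428 CPM, above both UAS-tkv libraries in replicate 1 and below both in replicate 2. RpS19b stood at 234 and 179 CPM against 251 and 356 CPM (log2 -0.56, SE 0.29, edgeR adjusted p = 0.421), whereas its paralogue RpS19a was at 4637 and 1109 CPM against 2890 and 2940 CPM. Since paralogues share sequence and the treatment of reads with several matches is not given in the sources used here, the division of reads between such pairs is uncertain.

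**Figure D3:**
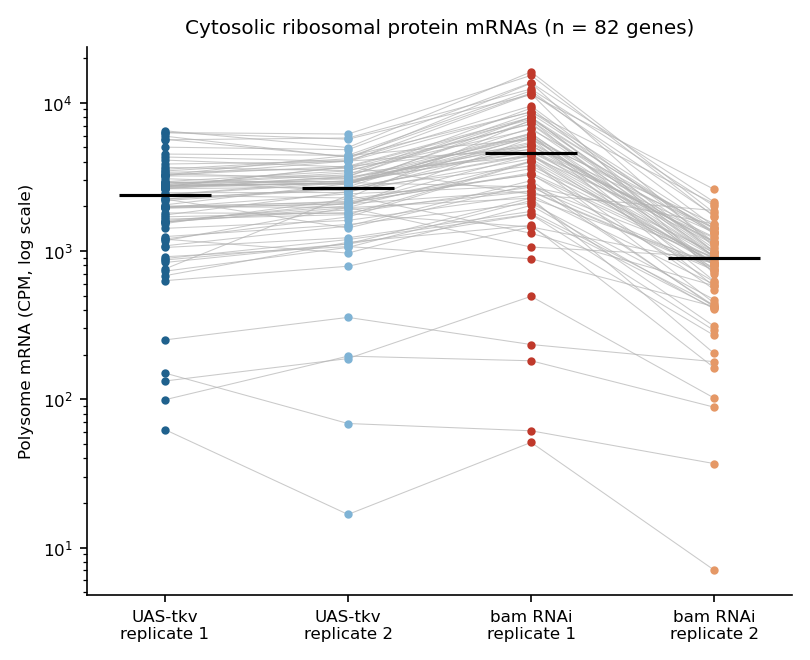
Polysome CPM (log axis) of the 82 cytosolic ribosomal protein genes in each library, with a grey line for each gene and a black bar for the library median (2377, 2659, 4565 and 899 CPM from left to right). The UAS-tkv libraries are alike, and the bam RNAi libraries lie on either side of them.

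Other lists divided in the same way, to a smaller extent. Oxidative phosphorylation genes (72 tested) had a median log2 difference of 0.66 in bam RNAi replicate 1 and -0.55 in replicate 2, and the mitochondrial ribosomal proteins (70 tested) one of 0.22 and -0.73. No member of either list was called. Over all genes, 287 (2.95%) were more than 4-fold higher in replicate 1 than in replicate 2 and 339 (3.48%) more than 4-fold lower, where the UAS-tkv libraries gave 193 (1.98%) and 373 (3.83%). Among genes with a mean of at least 100 CPM over the bam RNAi libraries, 9 of the 10 with the highest ratio of replicate 1 to replicate 2 encoded ribosomal proteins. The other was Obp99a, an odorant-binding protein gene, at 632 and 36.2 CPM. On the other side lay Cyp4g1, a cytochrome P450 of oenocytes, at 81.4 and 469 CPM, the vitelline membrane genes given above, Ggamma1 at 158 and 729 CPM and hop, the JAK kinase, at 90.6 and 294 CPM.

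**Figure D4:**
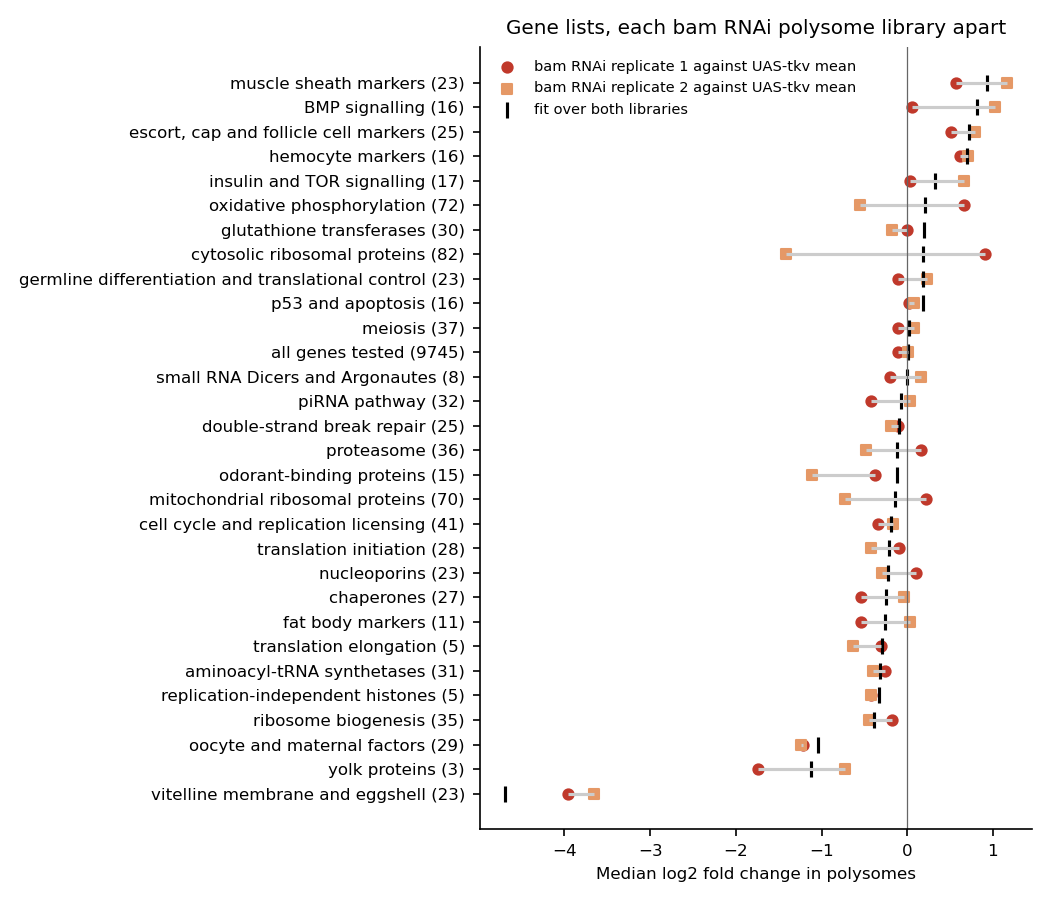
Median log2 difference from UAS-tkv for 29 gene lists and for all genes tested, with the number of genes in brackets, for bam RNAi replicate 1 (red circles) and replicate 2 (orange squares) against the UAS-tkv mean (1 CPM added) and for the fit over both (black marks). The midgut peptidases are left out because 1 UAS-tkv library sets their median. Ribosomal proteins show the widest gap between the circles and squares, 0.90 and -1.42, and eggshell genes lie lowest in both, -3.96 and -3.65.

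Exon length, the summed length of a gene's exons, went with both contrasts. The 39 genes that rose and had an annotated length had a median of 5541 bases, the 20 that fell 1764 bases, and all genes tested 2000 bases. By quintiles of length, the quintile of longest genes (3945 bases or more) held 24 of the genes that rose and none that fell, where the shortest quintile (up to 1080 bases) held 1 and 3. The median log2 difference between the genotypes was -0.15 in the shortest and 0.34 in the longest quintile in polysomes, and 0.08 and 0.15 in input. The ratio of bam RNAi replicate 1 to replicate 2 went the other way, with a median log2 of 0.08 in the shortest quintile and -0.48 in the longest. Leaving out the ribosomal protein genes changed the first of these to 0.04 and left the second at -0.48. The ratio of UAS-tkv replicate 1 to replicate 2 rose from -0.34 to 0.25. In input, the ratio of bam RNAi replicate 1 to replicate 2 rose as well, from -0.37 in the shortest to 0.59 in the longest quintile. The part of length in the called genes was not tested.

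**Figure D5:**
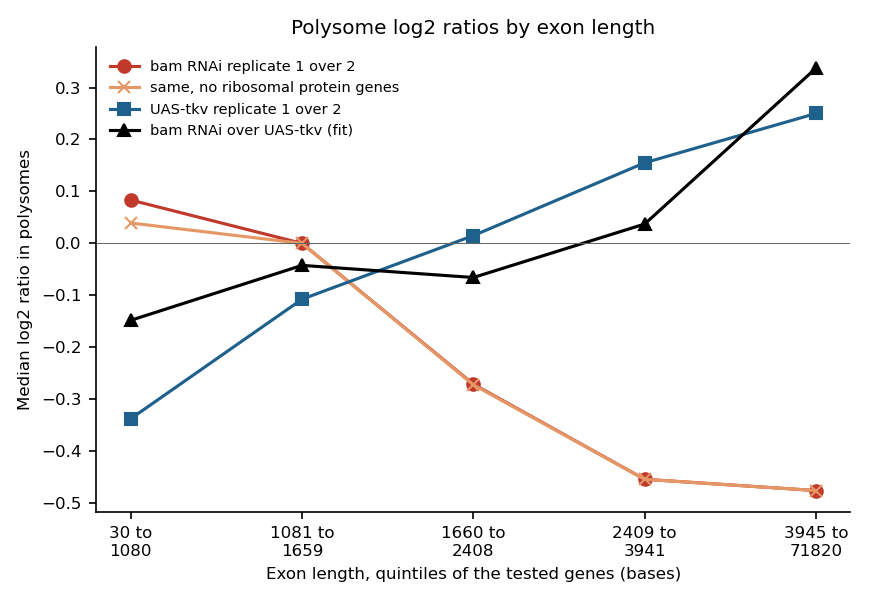
Median log2 ratio in polysomes by quintiles of exon length (1907 to 1909 genes in each), for bam RNAi replicate 1 over 2, with all genes and without ribosomal protein genes, UAS-tkv replicate 1 over 2, and the fitted bam RNAi over UAS-tkv. From the shortest to the longest quintile the bam RNAi replicate ratio goes from 0.08 to -0.48 and the UAS-tkv ratio from -0.34 to 0.25, and the genotype difference ends at 0.34.

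The most abundant polysome mRNAs were shared by both genotypes. Of the 10 genes with the highest mean level, 6 encoded ribosomal proteins. CG43134 was the highest at 45555 and 16016 CPM in bam RNAi and 15387 and 41546 CPM in UAS-tkv, so that a high and a low library fell in each genotype. eEF2, the translocation factor of elongation, was at 4661 and 4207 CPM against 8711 and 4926 CPM. CG7443 was the only gene of the 10 with both bam RNAi libraries above both UAS-tkv libraries, at 16282 and 9146 CPM against 2779 and 5471 CPM, and it was not called (log2 1.62, SE 0.65, edgeR adjusted p = 0.292).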

How the data were processed

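Ovaries were lysed, polysomes were separated on sucrose gradients, and poly(A) RNA of input and polysome fractions was sequenced. Per the labels, the authors aligned reads to dm6 with HISAT2 2.1.0 and deposited raw counts per gene made with featureCounts 1.4.6. The annotation release, strand setting and treatment of multiply mapped reads are not given in the sources used here. Of 17023 IDs, 16647 were named from an Ensembl annotation with dm6 coordinates and 376 were not matched.

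Genes were filtered with filterByExpr, scaled by TMM and fitted as 6 group means over 12 libraries with edgeR 4.0.16 (limma 3.58.1, R 4.3.3), with 6 residual degrees of freedom. DESeq2 1.42.0 was an alternative, as were other scalings, no filter, fewer libraries and a replicate block. The polysome test was also run on simulated counts, with the same spread for all genes and no gap between replicates. Since the bam RNAi polysome libraries do differ, that run cannot show how reliable the calls are here. Ratios of single libraries used 1 CPM added. Shares carry binomial counting error only, and for ribosomal proteins the 95% Wilson intervals were 33.8 to 33.9% and 9.50 to 9.53% in bam RNAi, 21.6 to 21.6% and 21.8 to 21.9% in UAS-tkv.

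The text names genes of the labels and the study, the 10 called genes a direction with the largest change whose mean reached 10 CPM, up to 3 called members of each list (or 2 by lowest p), the 10 genes a direction that differed most between the bam RNAi libraries at 100 CPM or more, and the 10 most abundant. The 10 called genes a direction were taken only where both libraries of a genotype lay beyond both of the other. Others were chosen after their values were seen. The comparison and the 30 lists were chosen with earlier results of these data known, and wrong list matches were corrected once the gene IDs were seen. Values per library of genes outside the rule are given for context.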

Additional observations from a re-analysis of the deposited data

Results flagged for a closer look

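The gene scaf differed between fractions in its response to genotype. Its polysome difference exceeded its input difference by 8.48 on the log2 scale (SE 0.92, edgeR adjusted p = 0.0218). Both bam RNAi libraries lay above both UAS-tkv libraries in polysomes and in input. With 0 counts in both UAS-tkv polysome libraries the fitted value depends on the prior count and is no bound. The test was the interaction term of the fit over 12 libraries. The call was lost with the replicate block and with any of 6 of the 8 input and polysome libraries left out (adjusted p from 0.0558 to 0.491), and it was kept without bam RNAi polysome replicate 1 (0.0478) or 2 (0.0361).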

How the results depend on the processing

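The number of genes called in polysomes was 61, 68 with RLE factors and 70 with ribosomal protein genes left out of the totals, but 509 with DESeq2 (380 higher, 129 lower), 706 with no filter on low counts (491 higher, 215 lower) and 36 with the 4 polysome libraries alone (4 higher, 32 lower). It ranged from 16 to 231 with a library left out. Of the 61 genes, 61 were called by DESeq2, 61 with no filter, 58 with RLE factors, 59 without ribosomal protein genes and 21 with the 4 libraries alone, and from 13 to 50 with a library left out, where a lone sample is assumed to vary like the other groups. The input calls, 23, became 105 with DESeq2, 36 with the 4 inputs alone and 37 with the replicate block, and ranged from 0 to 25 with an input library left out and from 33 to 41 with a polysome library left out. With 0 edgeR calls, without bam RNAi input replicate 1, 288 genes were higher and 240 lower at an unadjusted p under 0.05. The interaction gave 1 call, 18 with no filter, 0 with the replicate block, and 0 to 3 with a library left out. The cause of these shifts was not tested.

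The replicate block, which pairs samples by their shared number, gave 89 polysome calls (52 higher, 37 lower), among them all 61. The labels do not say what a shared number marks. Deviations from the group means correlated across genes at r = -0.01 between bam RNAi and UAS-tkv polysome libraries, at 0.54 between UAS-tkv input and polysome libraries, and at -0.003 between those of bam RNAi, which bears on the interaction. With protein-coding genes as the denominator, the ribosomal protein share was 35.6% and 9.98% in bam RNAi and 22.8% and 23.0% in UAS-tkv. Of 30 list medians, 11 lay above 0, 14 with ribosomal protein genes left out of the totals and 11 to 15 with a library left out. The median of the ribosomal protein list ranged from -1.41 to 0.91, that of the yolk proteins from -1.79 to 0.21. Dcr-2 ranged from -0.27 without bam RNAi replicate 2 to 0.42 without replicate 1. Scaling without ribosomal protein genes moved the median of all genes from 0.01 to 0.10. Genes with few counts, such as bam, limit what the depth can show.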
